A study of Mus musculus with 2 samples.

Results

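The colony-stimulating factors and the receptors that sense them were examined in pancreatic islets from adult mice, on 1 array labelled as a beta cell-specific knockout of the zinc finger gene Zbtb20 and 1 array of controls. The group comprised 10 genes of the 18193 genes with a probe set of their own on the Affymetrix arrays. It held the growth factor genes Csf1, Csf2 and Csf3, the receptor genes Csf1r, Csf2ra, Csf3r, Il3ra and Il5ra, and the paired signalling chains Csf2rb and Csf2rb2. Every probe set whose annotation included one of these symbols was taken, which gave 18 of 45037 probe sets. Of these, 17 were annotated with 1 gene and 1 with both Csf2rb and Csf2rb2. Csf2rb was chosen by its ratio between the same 2 arrays described here, which ranked 7th among 10450 genes, and Csf3 was among the genes with the largest differences in the other direction. Their values are therefore descriptions and carry no test.

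The study set islets labelled as b cell-specific ZBTB20 knockout beside wildtype islets of littermate controls. Both came from mice of mixed background, 2 to 3 months old, and were picked by hand after collagenase digestion, kept in culture overnight and frozen. There was 1 array for each genotype. How many animals an array stands for, and which promoter drove the deletion, are not given in the sources used here. With a single array on either side, no ratio below has a replicate error, none was tested for significance, and genotype and RNA preparation cannot be told apart. The 9 probe sets of Zbtb20, the targeted gene, did not separate the arrays in 1 direction: 5 were lower and 4 higher in the knockout-labelled islets, with log2 ratios between -0.87 and 0.54 and a median of -0.06. The exons deleted are not given in the sources used here, so these probe sets do not check the label, and the islets are called knockout-labelled. All 11 annotated beta cell markers were measured, and Ins2, the insulin gene, had a signal of 7785.8 in knockout-labelled and 9194.3 in control islets.

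Colony-stimulating factors are secreted proteins that sustain the survival, growth and activity of myeloid cells. CSF2 (GM-CSF), interleukin 3 and interleukin 5 each bind a private alpha chain, encoded by Csf2ra, Il3ra and Il5ra, and then recruit the common beta chain encoded by Csf2rb, which carries the kinase JAK2 and activates the transcription factor STAT5. Mice have a further beta chain, Csf2rb2, which serves interleukin 3 alone. CSF3 (G-CSF) signals through its own receptor of the same structural class, whereas the CSF1 receptor is a receptor tyrosine kinase, the growth factor receptor of macrophages, which also binds interleukin 34. In islets, resident macrophages are the best known cells to carry these receptors.

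Signals were MAS5 intensities, in which the median probe set stood at 21.7 on the knockout-labelled and 21.6 on the control array. These medians served as a floor. A probe set counted as measured if it exceeded the floor on at least 1 array, and a ratio with 1 side under the floor was taken against the floor and is written as "at least". Of the 18 member probe sets, 11 exceeded the floor on both arrays, 1 on the knockout-labelled array only, 2 on the control array only and 4 on neither. Of the 14 measured ones, 3 were higher by 2-fold or more in knockout-labelled islets, where 1.87% of all 24486 measured probe sets were, and 1 was at least 2-fold lower, where 1.29% of all were. The 3 higher ones were both probe sets of Csf2rb and 1 of Csf1r. Counted by gene, with the brightest probe set standing for each, 7 of 10 genes were measured. Csf2rb was at least 2-fold higher (background 1.82% of 11802 genes), Csf3 was at least 2-fold lower (background 1.44%), and 5 lay within 2-fold. Since members were picked with these ratios in view, nothing is read from those shares.

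**Figure D1:**
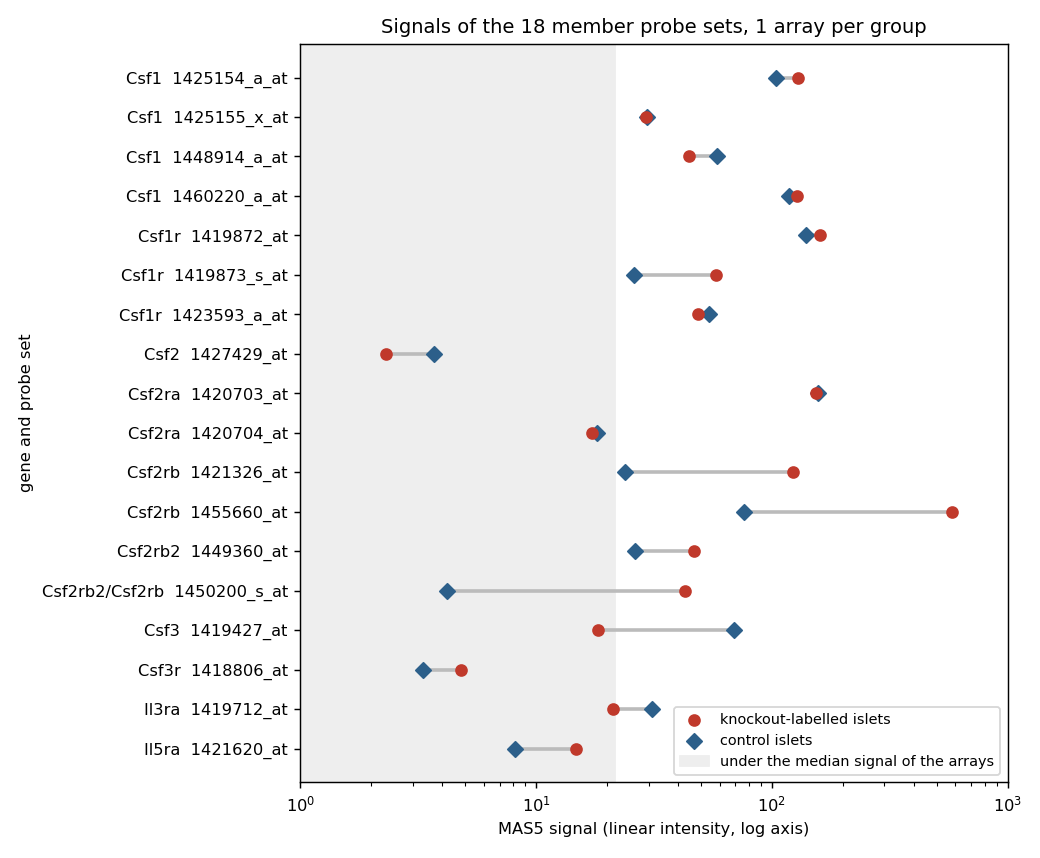
MAS5 signal (log axis) of the 18 member probe sets in knockout-labelled islets (red circles) and control islets (blue diamonds), 1 array each, with a grey bar joining the 2 values and the range under the array medians shaded. The probe sets of Csf2rb lie far to the right in knockout-labelled islets, that of Csf3 lies to the left, and those of Csf2, Csf3r and Il5ra stay in the shaded range on both arrays.

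Csf2rb showed the widest gap between the arrays among the members above the floor on both. Probe set 1455660_at of Csf2rb gave a signal of 580.8 in knockout-labelled islets, against 76.3 in control islets, which is 7.61-fold higher (log2 ratio 2.93). The other Csf2rb probe set, 1421326_at, gave 123.1 in knockout-labelled and 23.8 in control islets, 5.17-fold higher (log2 ratio 2.37), with the control signal close to the floor. Both probe sets thus showed the higher signal in the knockout-labelled islets, and their log2 ratios differed with an SD of 0.39. Over 4719 genes with at least 2 probe sets above the floor on both arrays, the median of that SD was 0.21 and its 90th percentile 0.49.

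The spread among probe sets of similar brightness is the other guide to size that 2 arrays allow. All measured probe sets were split into 10 equal classes by mean signal. In the class of 1455660_at, with mean signals from 174.4 to 288.6, the central 95% of log2 ratios ran from -0.61 to 0.71, and in that of 1421326_at from -0.99 to 1.09. Both Csf2rb values lay above these ranges, which include no variation between animals. Because Csf2rb was chosen by its high ratio on these arrays, that position follows from the choice and is no test. The 4 genes with log2 ratios nearest to that of Csf2rb were Aqp4, a water channel gene (2.94), Rasgrp1, a Ras activator gene (2.64), the trypsinogen gene Prss3, which has close paralogs (2.57) and Ptger4, a prostaglandin E receptor gene (2.52). With 1 array a group, this likeness is that of a single ratio.

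Csf2rb2, the chain specific to interleukin 3 in mice, is the closest relative of Csf2rb and lies next to it on chromosome 15 in the RefSeq gene order, with 0 protein-coding genes between them. Its own probe set, 1449360_at, gave 46.8 in knockout-labelled and 26.3 in control islets, 1.78-fold higher (log2 ratio 0.83). That ratio lay inside the central 95% of its brightness class, which ran from -1.07 to 1.15. Probe set 1450200_s_at, annotated with both genes, gave 43.0 in knockout-labelled islets and 4.2, under the floor, in control islets, so its ratio was at least 1.99-fold. All 4 probe sets of the pair were higher in the knockout-labelled islets. The transcripts of these genes are similar enough to share a probe set, and how far Csf2rb transcript added to the Csf2rb2 signal was not tested.

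The promoter of Csf2rb2 is shown because its signal was higher on the same array as that of Csf2rb, and that of Cish is shown as a gene known for control by STAT5, the factor that the beta chains activate. Both are RefSeq sequences of GRCm38.p6, from 250 bases before to 50 bases after the annotated start, written 5′ to 3′ on the gene's strand. Csf2rb2 lies at chr15:78305672-78305971 on the minus strand and Cish at chr9:107296409-107296708 on the plus strand. Capitals mark matches to TTCNNNGAA, the palindromic letters bound by STAT proteins, and to GAGGAA, a core of ETS factors such as the myeloid regulator PU.1, which reads TTCCTC on the other strand.
Csf2rb2: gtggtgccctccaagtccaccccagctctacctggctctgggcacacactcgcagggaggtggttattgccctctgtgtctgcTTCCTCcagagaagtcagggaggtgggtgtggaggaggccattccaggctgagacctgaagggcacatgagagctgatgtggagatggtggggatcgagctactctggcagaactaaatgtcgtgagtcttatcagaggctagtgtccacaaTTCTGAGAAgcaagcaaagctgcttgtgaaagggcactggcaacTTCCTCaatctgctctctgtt
Cish: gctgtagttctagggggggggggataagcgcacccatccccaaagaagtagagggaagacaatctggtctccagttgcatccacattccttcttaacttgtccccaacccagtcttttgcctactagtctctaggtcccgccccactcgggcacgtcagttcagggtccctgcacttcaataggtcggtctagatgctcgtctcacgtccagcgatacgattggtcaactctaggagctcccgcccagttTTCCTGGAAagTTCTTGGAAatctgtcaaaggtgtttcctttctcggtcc
Csf2rb2 held 1 TTCNNNGAA, spelled TTCTGAGAA and beginning 15 bases before the start, and 2 GAGGAA matches on the opposite strand, beginning 167 bases before and 29 bases after it. Cish held 2 TTCNNNGAA, TTCCTGGAA at the start and TTCTTGGAA 11 bases further on, and no GAGGAA. The matches in these windows do not overlap each other. On both strands, TTCNNNGAA occurred in 8.3% of all 32851 promoter windows and GAGGAA in 28.3%. Csf2rb, Csf3 and Csf1r were not searched. Of the 7 other member genes, TTCNNNGAA was found in Csf2rb2 only, and GAGGAA in 4, namely Csf2ra, Csf2rb2, Csf3r and Il5ra. A match gives letters and no evidence of binding.

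The private alpha chains did not share the high ratio of Csf2rb. Csf2ra, which confers binding of CSF2, had 153.6 in knockout-labelled and 156.5 in control islets in probe set 1420703_at (log2 ratio -0.03), and its other probe set was under the floor on both arrays, at 17.2 and 18.2. Il3ra, the interleukin 3 chain, had 21.1 in knockout-labelled islets, just under the floor, and 30.9 in control islets, a ratio of at least 1.42-fold lower that lay inside the spread of its class. Il5ra, the interleukin 5 chain of eosinophils and B cells, was under the floor on both arrays, with 14.8 in knockout-labelled and 8.1 in control islets. None of the alpha chain genes was 2-fold higher. The ligands that use these receptors were at the bottom of the range: Csf2 had 2.3 in knockout-labelled and 3.7 in control islets, Il3 had 1.4 and 1.2, and Il5 had 1.2 and 0.9. A signal under the floor gives no ratio and does not show that a transcript is absent.

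**Figure D2:**
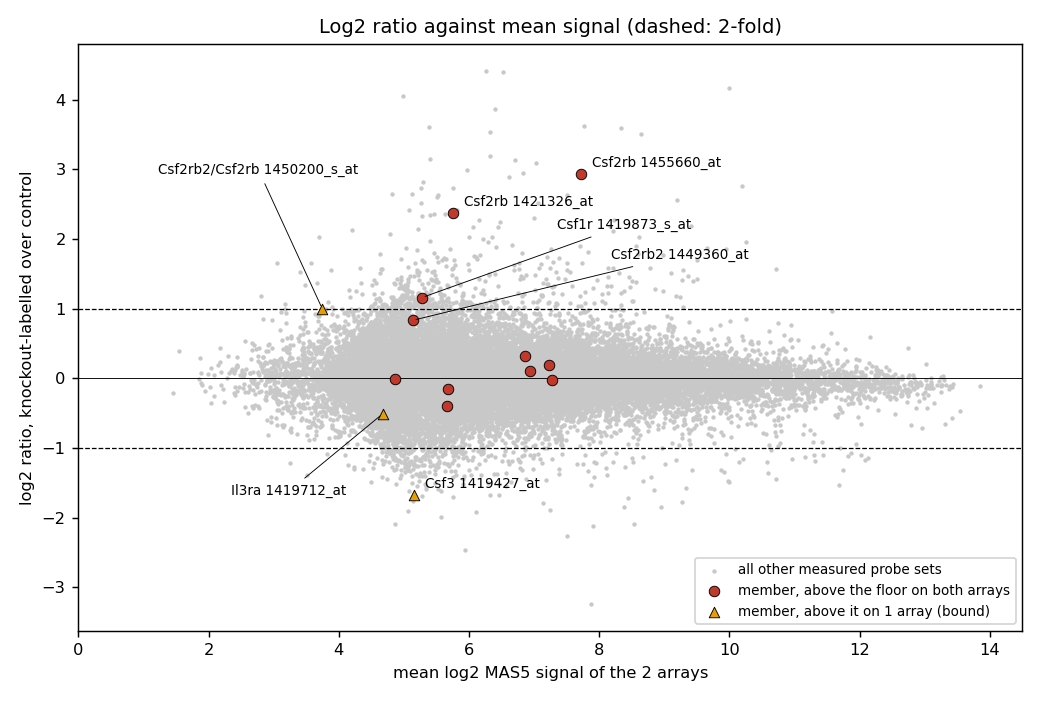
Log2 ratio of knockout-labelled over control islets against mean log2 MAS5 signal of the 2 arrays for all measured probe sets (grey), with member probe sets above the floor on both arrays as red circles and those above it on 1 array as orange triangles. Both Csf2rb probe sets lie above the upper 2-fold line, at log2 ratios of 2.93 and 2.37, and Csf3 lies below -1. Most other members lie within the 2-fold lines.

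Csf3 was the 1 member gene lower by 2-fold or more in knockout-labelled islets. G-CSF, its product, drives neutrophil production and is made by stromal, endothelial and myeloid cells under inflammatory stimuli. Its single probe set, 1419427_at, gave 18.3 in knockout-labelled islets, under the floor, and 69.1 in control islets, at least 3.18-fold lower (log2 ratio of -1.67 or less). Raising the floor to the 70th percentile gave -0.01, as the control signal then barely passed the floor. Csf3r, the receptor of G-CSF on neutrophils, was under the floor on both arrays, at 4.8 in knockout-labelled and 3.3 in control islets.

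Some genes of inflammation were also lower in the knockout-labelled islets. Of 26 listed cytokine, chemokine and NF-kappaB genes, 22 were measured, of which 8 were lower by 2-fold or more (1.44% of all genes), 1 was higher (1.82% of all genes) and 13 lay within 2-fold. In direction, 16 were below and 6 above 0, with a median log2 ratio of -0.27 beside 0 over all genes. Il6, an inflammatory cytokine gene, had 138.3 in knockout-labelled and 400.4 in control islets. The neutrophil chemokine genes were also lower, Cxcl2 with 72.7 in knockout-labelled and 167.8 in control islets and Cxcl5 with 29.8 and 97.5. Cxcl1, of the same chemokine family, had log2 ratios of -2.26 in its brightest probe set and of -0.96 and -0.27 in the others. The remaining ones were the prostaglandin synthesis gene Ptgs2 and the NF-kappaB inhibitor gene Tnfaip3 (both -1.23), and the monocyte chemokine gene Ccl2 (-1.07). The last was the adhesion molecule gene Vcam1, a bound at the 2-fold limit. Further probe sets gave -1.32 for Ptgs2, -0.53 for Tnfaip3, and bounds of 0.10 and -0.26 for Vcam1, which did not share a direction. In the opposite direction, Ccl20, a chemokine gene for lymphocytes and dendritic cells, had 79.2 in knockout-labelled islets and 13.4, under the floor, in control islets. Neutrophil, eosinophil and mast cell markers were mostly under the floor on both arrays (12 of 15), and S100a9 had 118.0 in knockout-labelled and 176.9 in control islets. The part of these cells in the Csf3 signal was not tested.

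The macrophage growth factor Csf1 was close to equal on both arrays. Its 4 probe sets had signals of 29.1 to 129.5 in knockout-labelled islets and of 29.4 to 118.1 in control islets, with log2 ratios from -0.40 to 0.31. They did not share a direction, since 2 were above and 2 below 0. The brightest, 1460220_a_at, gave 127.4 in knockout-labelled and 118.1 in control islets (log2 ratio 0.11). Il34, the other ligand of the CSF1 receptor, had 41.6 in knockout-labelled islets and 8.1, under the floor, in control islets, at least 1.93-fold higher.

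The 3 probe sets of Csf1r, the receptor that marks macrophages, disagreed. Probe set 1419873_s_at gave 57.8 in knockout-labelled and 25.9 in control islets, 2.23-fold higher (log2 ratio 1.16). The brightest, 1419872_at, gave 159.9 in knockout-labelled and 139.7 in control islets, and 1423593_a_at gave 48.5 and 54.0, with log2 ratios of 0.19 and -0.15. Their SD of 0.68 exceeded the 90th percentile over all genes, so no single ratio describes Csf1r.

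Since macrophages carry the beta chains and Csf1r, their markers are given beside these values. Of 29 listed macrophage and dendritic cell markers, 28 were annotated and 20 measured, of which 18 were above and 2 below 0. Of the 20, 4 were higher by 2-fold or more (1.82% of all genes) and 0 lower (1.44%). The median log2 ratio was 0.56 beside 0 over all genes. The signals of the 28 annotated markers summed to 3169.2 in knockout-labelled and 2111.7 in control islets, which is 50.1% higher. That sum is weighted to bright genes and includes genes under the floor. Mrc1, the mannose receptor of tissue macrophages, came nearest to Csf2rb with 130.8 in knockout-labelled and 24.5 in control islets, while Cd68, a lysosomal macrophage protein gene, had 159.3 and 119.0 and Lyz2, the lysozyme gene, had 63.6 and 64.0. The other 3 past 2-fold were the complement gene C1qb (log2 ratio 1.21) and the signalling adaptor genes Tyrobp (1.06) and Fcer1g, a bound at 1.26. Further probe sets of C1qb gave 0.30 and, as a bound, 0.95. The 2 below 0 were Ccr2 (-0.34) and Lyz2 (-0.01). No marker was listed at 0, but 8 were under the floor on both arrays, namely Itgam, Itgax, Aif1, Spi1, Cx3cr1, Ly86, Cd163 and Folr2. The part of macrophages in the beta chain signals was not tested. In RNA of whole islets, a change in the number of cells of a type and one in RNA per cell cannot be told apart. Acinar markers were lower in the same preparation, with a median of -1.10. Of 14 measured, 9 were at least 2-fold lower (1.44% of all genes). They were Reg2, with a log2 ratio of -3.24, and Reg1, Pnliprp1, Sycn, Cel, Prss2, Cpa1, Cela1 and Cela2a, of which Reg1 had the lowest at -1.49.

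**Figure D3:**
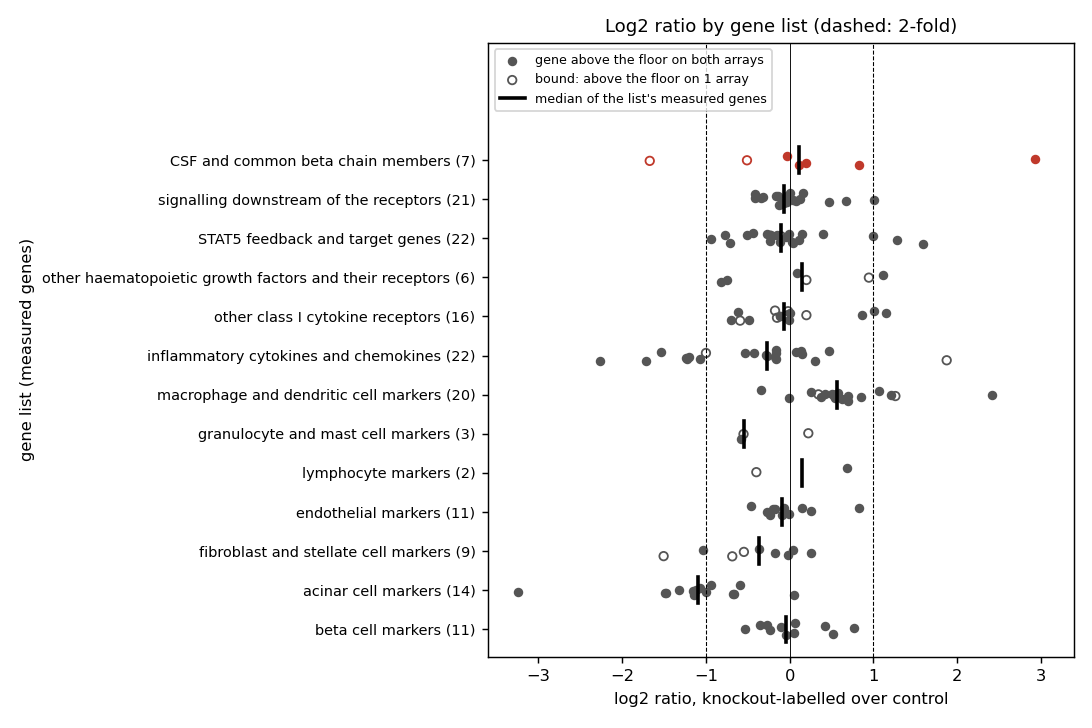
Log2 ratio of knockout-labelled over control islets for each measured gene of the member group (red) and of 12 other lists (grey), with filled points for genes above the floor on both arrays, open points for bounds and black bars for medians. Csf2rb, which was chosen by its ratio, lies to the right of every other gene drawn, at 2.93. Macrophage markers have a median of 0.56 while acinar markers have one of -1.10.

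Most genes of signalling proteins behind the receptors lay within 2-fold. Of 29 listed, 22 were annotated and 21 measured, with 1 higher by 2-fold or more (1.82% of all genes) and 0 lower (1.44%). The median log2 ratio was -0.06, or 0.07 when all probe sets of a gene were averaged. Jak2, the kinase bound to the beta chain, had 217.0 in knockout-labelled and 222.1 in control islets. Stat5a had 46.3 and 42.4, and Stat5b had 106.9 and 104.2. Their other probe sets, which were dimmer, gave log2 ratios of 0.55 for Stat5a and -0.50 for Stat5b, so the probe sets of either gene did not share 1 value. The gene at the 2-fold limit was Akt1, a survival kinase gene, with 454.0 in knockout-labelled and 226.8 in control islets, and its other measured probe sets gave smaller log2 ratios of 0.56 and 0.21. Pik3r1, a regulatory subunit of phosphoinositide 3-kinase, had log2 ratios of 0.48 to 1.08 over 4 probe sets, with 435.2 in knockout-labelled and 272.3 in control islets in the brightest.

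A mixed list of STAT5 feedback and target genes had 22 measured genes. It also holds Egr1, Fos, Dusp5, Dusp6, Spred1 and Spred2, which are better known as genes of the MAPK response. Its counts are therefore not a reading of STAT5 targets alone. By brightest probe set, 2 were higher by 2-fold or more (1.82% of all genes) and 0 lower (1.44%). In direction, 8 were above and 14 below 0, with a median of -0.11. Cish, a feedback inhibitor induced by STAT5, had 487.2 in knockout-labelled and 161.9 in control islets, 3.01-fold higher. Socs2, another inhibitor of that class, had 724.9 in knockout-labelled and 298.7 in control islets, 2.43-fold higher, and 4 further measured probe sets with log2 ratios from 0.06 to 1.32. Pim1, a kinase gene and STAT target, had 92.0 and 46.2 (log2 ratio 0.99), and its other probe set 0.05. Socs1, a further inhibitor, had 8.6 in knockout-labelled islets, under the floor, and 25.4 in control islets. Other members of the list stood lower. Egr1, the lowest by brightest probe set, had 249.9 in knockout-labelled and 479.1 in control islets (log2 ratio -0.94). Bcl6 gave -0.24 in its brightest probe set. Its other probe set, 1421818_at, had 17.0 in knockout-labelled islets, under the floor, and 73.8 in control islets. That is a log2 ratio of -1.77 or less, past the 2-fold limit and not among the counts by brightest probe set. Socs3, the feedback inhibitor of interleukin 6 type receptors, had 653.4 in knockout-labelled and 1072.8 in control islets, and the cyclin gene Ccnd1 had 230.0 and 391.7. Bcl2l1, a survival gene, was near equal in its brightest probe set, with 141.9 and 139.2. Its dimmer measured probe sets gave log2 ratios of -0.62 and -0.15. Growth hormone and prolactin receptors also act through STAT5, so the list does not separate the receptors.

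Other cytokine receptors were compared through a list of class I cytokine receptors. It also holds Il2ra and Il15ra, which differ from Csf2rb in structure, and the secreted subunit gene Ebi3. Il15ra had the lowest log2 ratio of the list (-0.70). Of 29 listed, 23 were annotated and 16 measured, with 2 higher by 2-fold or more (1.82% of all genes) and 0 lower (1.44%). In direction, 11 were below 0, and the median log2 ratio was -0.07. Il7r, the interleukin 7 receptor chain, had 58.0 in knockout-labelled and 26.2 in control islets, 2.21-fold higher. Cntfr, a receptor for ciliary neurotrophic factor, had 94.6 and 47.2, and Crlf2, the receptor of thymic stromal lymphopoietin, had 266.0 and 146.7 (log2 ratio 0.86). Lifr, the leukaemia inhibitory factor receptor, had 110.3 in knockout-labelled and 169.1 in control islets, and Il6st, the shared chain of the interleukin 6 family, had 242.6 and 242.5. The highest log2 ratio in that list was 1.15, beside 2.93 for Csf2rb. Csf2rb was chosen by its high ratio and the list was not, so that gap follows from the choice.

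Growth factors of other blood lineages were mostly dim, with 6 of 10 annotated genes measured and a median of 0.15, which was -0.01 with the floor at the 70th percentile. Kitl, the ligand of the stem cell factor receptor, had 59.8 in knockout-labelled and 27.6 in control islets in its brightest probe set, 2.17-fold higher, while 2 further measured probe sets gave log2 ratios of 0.34 and -0.27, the second of which is a bound. Its receptor gene Kit had 23.0 in knockout-labelled and 40.7 in control islets, and Flt3, a receptor of dendritic cell progenitors, was under the floor on both arrays.

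The genes beside Csf2rb and Csf3 on their chromosomes were set next to them in RefSeq order, taking the 6 nearest genes with a probe set on each side. Around Csf2rb, 9 of 12 neighbours were measured, and their log2 ratios ran from -0.18 to 0.83 with a median of 0.10. The highest was Csf2rb2, followed by Cacng2, a bound at 0.36. Ncf4, a phagocyte oxidase subunit gene on the far side of Csf2rb2, had 43.3 in knockout-labelled and 38.2 in control islets. Around Csf3, 9 of 12 neighbours were measured, with log2 ratios from -0.30 to 0.28. In neither neighbourhood did a gene other than Csf2rb or Csf3 reach 2-fold.

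**Figure D4:**
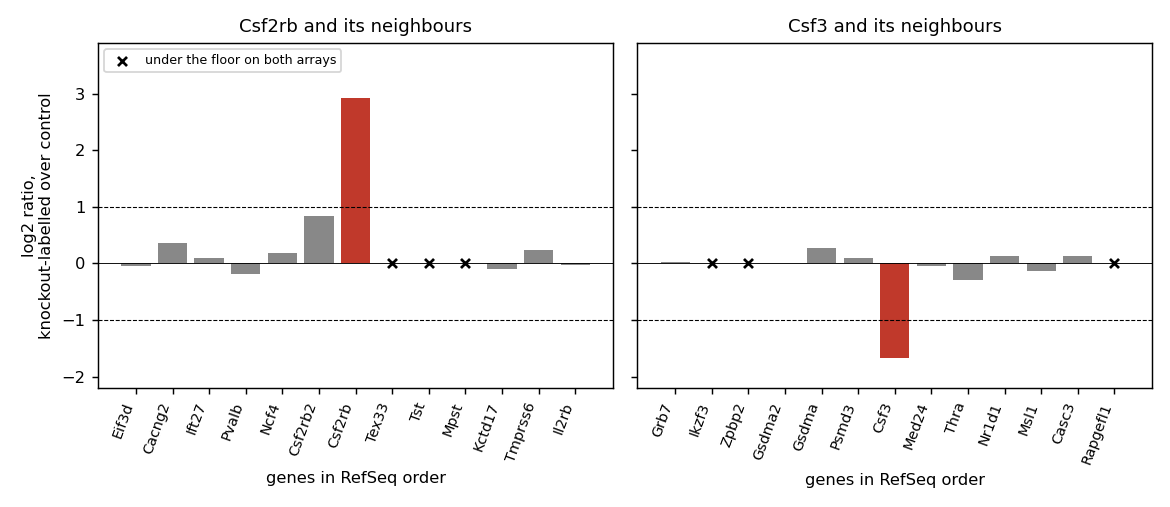
Log2 ratio of knockout-labelled over control islets for Csf2rb (left, red) and Csf3 (right, red) and the 6 genes with a probe set on each side in RefSeq order (grey), with crosses for genes under the floor on both arrays and dashed lines at 2-fold. Apart from Csf2rb at 2.93 and Csf3 at -1.67, bars lie between -0.30 and 0.83. Bars of genes above the floor on 1 array only, Csf3 among them, are bounds.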

How the data were processed

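Per the submitters' processing notes, the deposited intensity values are MAS5 signals, a linear summary of matched and mismatched probes. The version, scaling target, background step and detection calls are not given in the sources used here. Signals ran from 0.1 to 14244.3 on the knockout-labelled and from 0.1 to 15324.3 on the control array, and no further normalization was applied. With 1 array a group, the number of arrays limits the precision.

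Probe sets were named through the platform annotation, which is dated: 34945 had 1 gene, 932 several and 9160 none. By Entrez identifier, 34741 matched RefSeq for GRCm38.p6. Signals under the 50th percentile of an array were raised to it before log2 ratios were taken, and probe sets under it on both arrays were left out. The brightest probe set stood for a gene. The limit was 2-fold. All 10 members, the listed genes past 2-fold, up to 4 further listed genes with the next largest ratios, the ligands and signalling partners, and the 4 genes nearest to Csf2rb in ratio were named. Genes of chromosomal neighbourhoods, Cd68, Lyz2, Bcl2l1 and a few other list genes were named after their values were seen. The members and the 12 other lists were chosen with earlier results of these data known. The ratio procedure was tested on simulated data. Alternatives were other scalings, floors, fold limits and probe set rules. Python 3.11.15, numpy 2.4.6, pandas 2.3.3, scipy 1.17.1 and statsmodels 0.14.6 were used.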

Additional observations from a re-analysis of the deposited data

How the results depend on the processing

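No paired analysis was possible because each genotype has 1 array. A value was taken as moved when it shifted by more than 0.21 on the log2 scale, the median SD among probe sets of 1 gene. The log2 ratio of Csf2rb ran from 2.65 (mean over its probe sets) through 2.69 (no floor, log2(signal + 16)) to 2.93 over 8 alternatives. None of the 14 measured member probe sets changed sign in 77 recomputed values, of which 10 moved. The floor at the 70th percentile left no ratio for 1449360_at of Csf2rb2, 1450200_s_at of both beta chains and 1419712_at of Il3ra. It also left none for 1419873_s_at and 1423593_a_at of Csf1r or 1425155_x_at and 1448914_a_at of Csf1. These lost ratios are not among the 77. Probe set 1421326_at of Csf2rb was at 0.88 with the floor at the 70th percentile, under the 2-fold limit, because its control signal was raised to that floor. Csf3 ran from -1.92 to -0.01, and 1419873_s_at of Csf1r was at 0.82 without a floor. Probe set 1450200_s_at, shared by both beta chains, was at 2.31 with the floor at the 30th percentile.

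Member probe sets at least 2-fold higher numbered 1 under a floor at the 70th percentile and 5 at a limit of 1.5-fold, and 0 were lower with that higher floor. Member genes higher numbered 2 at 1.5-fold, and 0 were lower with the 70th percentile floor. Over all genes, 695 were higher and 643 lower under a floor at the 30th percentile, 96 and 64 at the 70th, 819 and 734 at 1.5-fold, and 51 and 17 at 3-fold. Over all probe sets these numbers were 1809 and 1751, 154 and 96, 1846 and 1607, and 105 and 26. The other scalings shifted the median of all genes by up to 0.0067. Members with signals near the floor, Csf2rb2, Il3ra and Csf3 among them, are limited by it.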

Other observations

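Markers of the other cell types that can make or sense colony-stimulating factors were also read. Of 11 measured endothelial markers, 0 reached 2-fold in either direction (1.82% of all genes were higher and 1.44% lower). The median log2 ratio was -0.10. Kdr, a receptor of vascular endothelial growth factor, had the ratio farthest from 1, with 72.8 in knockout-labelled and 40.9 in control islets. The median of fibroblast and stellate cell markers was -0.37, or 0.12 with the floor at the 70th percentile. Of 9 measured, 2 were at least 2-fold lower (1.44% of all genes). They were the matrix genes Dcn, with 19.8 in knockout-labelled islets, under the floor, and 61.6 in control islets, and Col3a1, with 22.5 and 46.0. Lymphocyte markers were under the floor on both arrays for 8 of 10 annotated genes. Cd8a had 54.1 in knockout-labelled and 33.6 in control islets in 1 probe set, and its other probe sets were under the floor on both arrays. Cd79a went the other way, with 11.8 in knockout-labelled islets, under the floor, and 28.6 in control islets.

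Of 7 measured neighbours around Csf2, which was itself under the floor, 1 was at least 2-fold lower (1.44% of all genes). This was P4ha2, a collagen prolyl hydroxylase gene, with 216.6 in knockout-labelled and 524.0 in control islets. Il3, the gene next to Csf2, was under the floor on both arrays. Irf1, an interferon-responsive transcription factor gene of the same region, had 206.7 and 259.6.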
